A study of Saccharomyces cerevisiae with 21 samples.

Results

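This section compares cells of the budding yeast Saccharomyces cerevisiae that had been rehydrated in diluted medium for 360 min with dry cells, over the whole transcriptome. The members were chosen by label: the 3 arrays labelled as 360 min of rehydration and the 3 labelled as dry, 6 of the 21 arrays of the series. Every probe set that was not a manufacturer's control entered, 9275 of 9335. All groups were the diploid strain BY4743, which carries deletions of HIS3, LEU2 and URA3, grown in rich medium (YPD) at 30 °C to an absorbance (A600) of 0.8 and moved into YPD diluted 20-fold.

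Cells rehydrated for 360 min had been dried and stored as below, then received 15 ml of 20-fold diluted YPD per dish at 22 to 25 °C, and the contents of 4 dishes were pooled in a flask. Dry cells had lost water in dishes at 22 to 25 °C for 42 h and were then kept for 72 h at 20% relative humidity. Samples taken after 15, 45 and 90 min in the same medium, and the control cells taken after transfer to diluted medium but before drying, are given where they place a level. Whether replicates came from different cultures or drying runs is not in the labels, so each p-value measures only the spread between these samples. Arrays report relative levels within the RNA that was labelled, so fewer cells that hold a transcript and less of it per cell cannot be told apart.

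A yeast cell that dries slowly passes from fermenting sugar to a starved, respiring state, with genes for non-fermentable carbon use, protein turnover and stress protection on and genes for ribosomes and division off. In the dry state metabolism stops, and the messenger RNA a cell holds is largely what it made while water was leaving. On rewetting, membranes reseal, and growth needs ribosomes, charged tRNAs, new wall and membrane and a restarted division cycle. Ribosome production depends on small nucleolar RNAs (snoRNAs), which guide cutting and modification of ribosomal RNA. Respiration depends on both nuclear genes and the few genes kept in the mitochondrial genome.

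The 360 min arrays differed from the dry arrays in shape as well as in single genes. Their median deposited signals were 142.7, 145.3 and 140.6, against 205.1, 205.1 and 199.9 on the dry arrays, although all had been scaled to about the same trimmed mean. Their brightest probe sets reached 30741, 20673 and 22836, against 6826, 6435 and 6958 on the dry arrays. Replicates correlated at 0.967 to 0.977 at 360 min and at 0.986 to 0.992 in dry cells. The ratio of 3′ to 5′ signal, a sign of RNA integrity and labelling, was higher at 360 min: on the log2 scale it was 1.85 ± 0.11 for ACT1 at 360 min and 1.15 ± 0.12 in dry cells, 2.49 ± 0.18 and 1.17 ± 0.74 for SPT15, and 2.77 ± 0.11 and 1.58 ± 0.28 for SRB4 (SD, n = 3 each; limma p, adjusted over these 3 ratios, of 0.00068, 0.000105 and 1.57e-06). The part of this shift in the results below was not tested. The 360 min arrays were hybridized in a run of their own and scanned on another day than the dry and the control arrays, so run, day and treatment cannot be told apart. URA3 stayed near the floor on all 6 arrays, at 2.7, 1.5 and 1.2 at 360 min and 1.2, 2.9 and 1.0 in dry cells. LEU2 was also near it on its brightest probe set, at 24.9, 7.4 and 20.8 at 360 min and 26.7, 16.7 and 15.5 in dry cells, but another, which may share sequence with other genes, was higher by 1.61. HIS3 gave signal, at 388, 319 and 309.6 at 360 min and 114, 125 and 125 in dry cells, and the deletion in this strain background is known to leave part of the gene in place. Of 6 spore markers, SPS100 rose by 1.21 (log2; 5514, 4971 and 4812 at 360 min and 1777, 2012 and 2949 in dry cells), DIT1 fell by 1.12 at a low level (-0.91 and -0.90, not called, without 360 min replicate 2 or 3), and the other 4 were not called, at most 41.6 on any of the 6 arrays. Of the 13 markers of haploid cells, MF(ALPHA)1 rose at a low level (46.2, 50.1 and 62.7 at 360 min and 8.2, 25.4 and 8.2 in dry cells) and the others were not called on their brightest probe sets. A dimmer probe set of FUS3, a mating kinase, was higher by 1.39, and RME1, MFA1 and HO were called under some of the alternatives run.

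Over 360 min of rehydration 2147 of the 9275 probe sets passed an adjusted p of 0.05 with at least a 2-fold change (23.1%). Of these, 1060 were higher at 360 min (11.4% of those tested) and 1087 lower (11.7%). On the 3 arrays of each group, 2739 probe sets (29.5%) were higher on every 360 min array than on any dry array and 2948 (31.8%) lower on every one. The 15 largest rises and 15 largest falls were named only from genes whose arrays were apart in this way. For those genes the lack of overlap given below is no added support. Nor is it for other genes named because they were called, as far more probe sets were apart than were called. Most changes were moderate: 167 probe sets were at least 4-fold higher and 141 at least 4-fold lower. Reduced to 1 probe set per gene, 477 of 5656 genes rose (8.43%) and 844 fell (14.9%), 1321 in all (23.4%). These shares are the background against which each group of genes below is read. All levels are quantile-normalized signals on the array's linear scale, and all differences are log2(signal + 17.74) at 360 min minus dry, which understates the change of dim genes. Quantile normalization also gives every array the same top values, so it can shrink differences among the brightest probe sets.

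The split between rises and falls turned on the scaling of the arrays. Under quantile normalization 49.4% of calls were higher at 360 min and the median of all probe sets was -0.00084. With the deposited scaling 866 were higher and 1717 lower, 33.5% higher, with the median of all probe sets at -0.20. With arrays centred on their medians 1711 were higher and 750 lower, 69.5% higher, with the median at 0.27. Changes are therefore read relative to that median. The medians of 16 of the 43 gene lists changed sign between the 3 scalings: arginine and lysine synthesis, other amino acid synthesis, nitrogen source use, cyclins, small subunit processome and snoRNP proteins, ergosterol, fatty acid and phospholipid synthesis, fatty acid oxidation, gluconeogenesis, glycerol, trehalose and glycogen, hydrophilins, stationary phase, folding in the endoplasmic reticulum, iron and copper uptake, and mating. Counts below are for quantile normalization unless another scaling is named. Of the named genes that were called, HXT1, FBP1, HBT1, SSA3, HAC1, ATG18 and HIS3 were not called with the deposited scaling. With median centring SOL4, FBP1, GPD1, STF2, ROQ1, YGP1, SPI1, SPG3, HBT1, SSA3, HAC1, ATG18, INO1, HHO1 and DIT1 were not called. With 50% of the median signal added in place of 10%, RKI1, ATG18, SWI4, CDC21, CDC6, HHO1, MF(ALPHA)1 and DIT1 were among those under 2-fold.

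**Figure D1:**
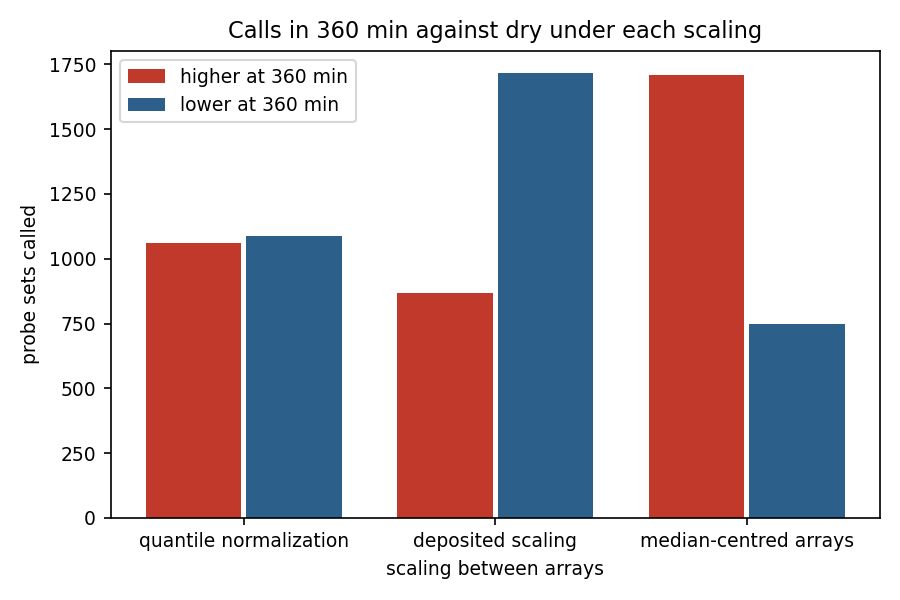
Number of probe sets called higher (red) and lower (blue) at 360 min than in dry cells under each of 3 scalings between arrays, out of 9275 tested. The calls are nearly even under quantile normalization (1060 higher, 1087 lower), mostly lower with the deposited scaling (866 and 1717) and mostly higher with median-centred arrays (1711 and 750).

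The clearest division lay between classes of RNA. Among genes for snoRNAs 53 of 57 rose, with a median difference of 1.78, and among tRNA genes 64 of 91 rose, with a median of 1.53. No member of either class fell. Of the 19 genes of the mitochondrial genome that had a probe set 17 rose, with a median of 2.02, and several of these are intron reading frames that overlap COX1 or COB. Copies of a tRNA share sequence, so tRNA probe sets may detect more than the gene they name. Of nuclear protein-coding genes 339 of 5467 were higher (6.20%) and 842 lower (15.4%), with a median of -0.21 that was -0.49 with the deposited scaling and -0.03 with median centring, while the medians of the other 3 classes stayed above 1 under all 3 scalings. These 4 classes were set side by side after their values were seen. Among the manufacturer's control probe sets for 25S ribosomal RNA, set a went from a mean deposited signal of 2389 in dry cells to 11994 at 360 min. Set e went from 3437 to 2308, and these sets were not tested. The part of RNA integrity and labelling in the class differences was not tested either.

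**Figure D2:**
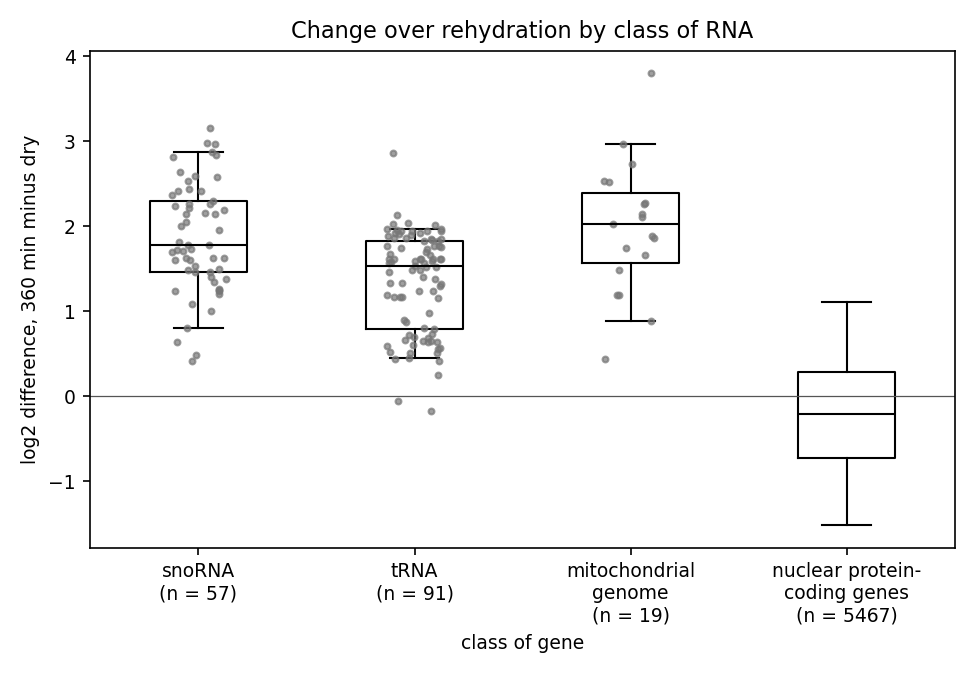
Log2 difference, 360 min minus dry, by class of gene (boxes show quartiles and median, whiskers the 5th and 95th percentiles, points single genes where a class has fewer than 200). The medians of snoRNA genes (1.78), tRNA genes (1.53) and mitochondrial genes (2.02) lie well above that of nuclear protein-coding genes (-0.21).

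Small nucleolar and spliceosomal RNAs formed the most uniform group, with 55 of 61 measured members higher and none lower. SNR66, a box C/D snoRNA, had signals of 1305, 1606 and 1664 in cells rehydrated for 360 min, against 115, 172 and 186 in dry cells. SNR17A, a gene for the U3 snoRNA that is needed for the early cuts in the ribosomal RNA precursor, had 1449.9, 1519.8 and 1447 at 360 min and 150.2, 157 and 211 in dry cells. The lowest 360 min array lay far above the highest dry array for both, with differences of 3.15 ± 0.21 and 2.98 ± 0.12 (SE; adjusted p of 5.95e-10 and 1.44e-12). SNR74, SNR52, SNR190 and SNR46 rose by 2.97, 2.87, 2.84 and 2.82. All the snoRNAs named here were among the 15 largest rises, taken only from genes without overlap between the groups. The climb was spread over the whole period: list medians relative to dry cells were 0.24, 0.52 and 0.84 after 15, 45 and 90 min, before 1.78 at 360 min. At 360 min the list lay 1.35 above the control cells at its median, above its level before drying.

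In the ribosome assembly lists few genes rose, and those that did with quantile normalization were proteins that package snoRNAs. Of the list of small subunit processome and snoRNP proteins 5 of 61 rose and 6 fell, with a median of -0.09. With the deposited scaling 2 rose and 10 fell (median -0.44), and with median centring 5 rose and 3 fell (0.03). The 5 that rose were all core snoRNP proteins: NOP58 (2.13 ± 0.15 SE, adjusted p = 1.57e-09), and, singled out after their values were seen, NOP56 (1.13), CBF5 (1.02), GAR1 (1.41) and NHP2 (1.44). NOP58, a scaffold of box C/D particles, had 1114, 1058 and 1192 in cells rehydrated for 360 min, against 217, 239 and 274 in dry cells on a probe set that may share sequence with other genes, and its other probe sets differed by 1.22 (called), -0.12 and 0.05. With the deposited scaling NOP56, CBF5 and GAR1 were under 2-fold, and with 50% of the median added NOP56 and CBF5 were. The core proteins NOP1 and SNU13 were not called, at 0.12 and 0.65. Those that fell included SAS10, a processome subunit, at 336, 397 and 369 at 360 min and 1190.2, 1147 and 1077 in dry cells (-1.59 ± 0.10 SE). Among 68 assembly factors of the large subunit none rose and 5 fell. They included TIF6, which keeps the immature large subunit from joining the small one, at 466, 420.5 and 441 in cells rehydrated for 360 min, against 1592, 1811 and 1719 in dry cells. The difference was -1.91 ± 0.09 (SE, adjusted p = 8.22e-12), without overlap, and RRS1, another assembly factor, fell by 1.70. RNA polymerases I and III had 2 of 26 higher and 5 lower. RRN3, the factor that lets polymerase I start on ribosomal DNA, had 225, 234 and 242 at 360 min and 945, 937 and 962 in dry cells and fell by 1.94, and RRN10, a subunit of its upstream activating factor, fell by 1.59. Of the 2 assembly lists 5 of 68 and 6 of 61 fell, beside 14.9% of all genes. None of the 68 and 5 of the 61 (8.20%) rose, beside 8.43% of all genes, so the rises were no more frequent than over all genes.

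Ribosomal protein genes rose in part and none fell. Of 47 measured proteins of the large subunit 13 rose and none fell (median 0.73), and of 34 of the small subunit 11 rose and none fell (median 0.67). With median centring 25 of the large and 20 of the small subunit rose, against 13 and 10 with the deposited scaling, and none fell under either. RPS26B, a small subunit protein, had 566, 618 and 647 in cells rehydrated for 360 min, against 90.9, 74.4 and 84.1 in dry cells. RPL22B, a large subunit protein, had 259.9, 228 and 334 at 360 min and 69.6, 47.1 and 51.4 in dry cells. Neither overlapped between the groups, with differences of 2.64 ± 0.13 and 1.98 ± 0.15 (SE; adjusted p of 9.74e-12 and 2.95e-09), and the brighter copies RPL22A and RPS22A rose by 1.67 and 1.88. Yeast carries most ribosomal protein genes as near-identical pairs, and a probe set here can detect both copies. These genes first dipped: the large subunit list stood at -0.32, -0.26 and 0.04 relative to dry cells after 15, 45 and 90 min. They remained far under their level before drying, by a median of -1.28 (360 min minus control). RPS26B averaged 1695 in control cells and RPL22B 879.

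Enzymes that charge tRNAs also rose in part, 5 of 19, with none lower and a median of 0.49. With the deposited scaling 2 rose (median 0.19) and with median centring 5 (0.66), and none fell under either. KRS1, the lysyl-tRNA synthetase, had 854, 904 and 949 in cells rehydrated for 360 min, against 249.7, 265 and 268 in dry cells. DED81, the asparaginyl-tRNA synthetase, had 729.6, 775 and 751 at 360 min and 241, 242 and 218 in dry cells. Both sets of arrays were fully apart (1.72 ± 0.10 and 1.62 ± 0.11 SE; adjusted p of 1.57e-10 and 5.03e-10), yet control cells held 4143 and 3777. Among 34 translation factors 1 rose and 7 fell. The rise was TEF4, a subunit of the elongation factor that reloads eEF1A, at 1142, 1344 and 1153 at 360 min and 322, 365 and 333 in dry cells (1.78 ± 0.18 SE). The largest of the falls was DED1, the helicase that unwinds messenger RNA leaders for initiation, at 116, 133 and 159 in cells rehydrated for 360 min, against 998, 1054 and 1116 in dry cells. DED1 fell by 2.81 ± 0.13 (SE, adjusted p = 3.11e-12), with no overlap of the arrays. Mitochondrial ribosomal proteins had no rise and 11 falls among 69, near the background share of falls, with MRPS28 at -1.93 and MRPL23 at -1.80.

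**Figure D3:**
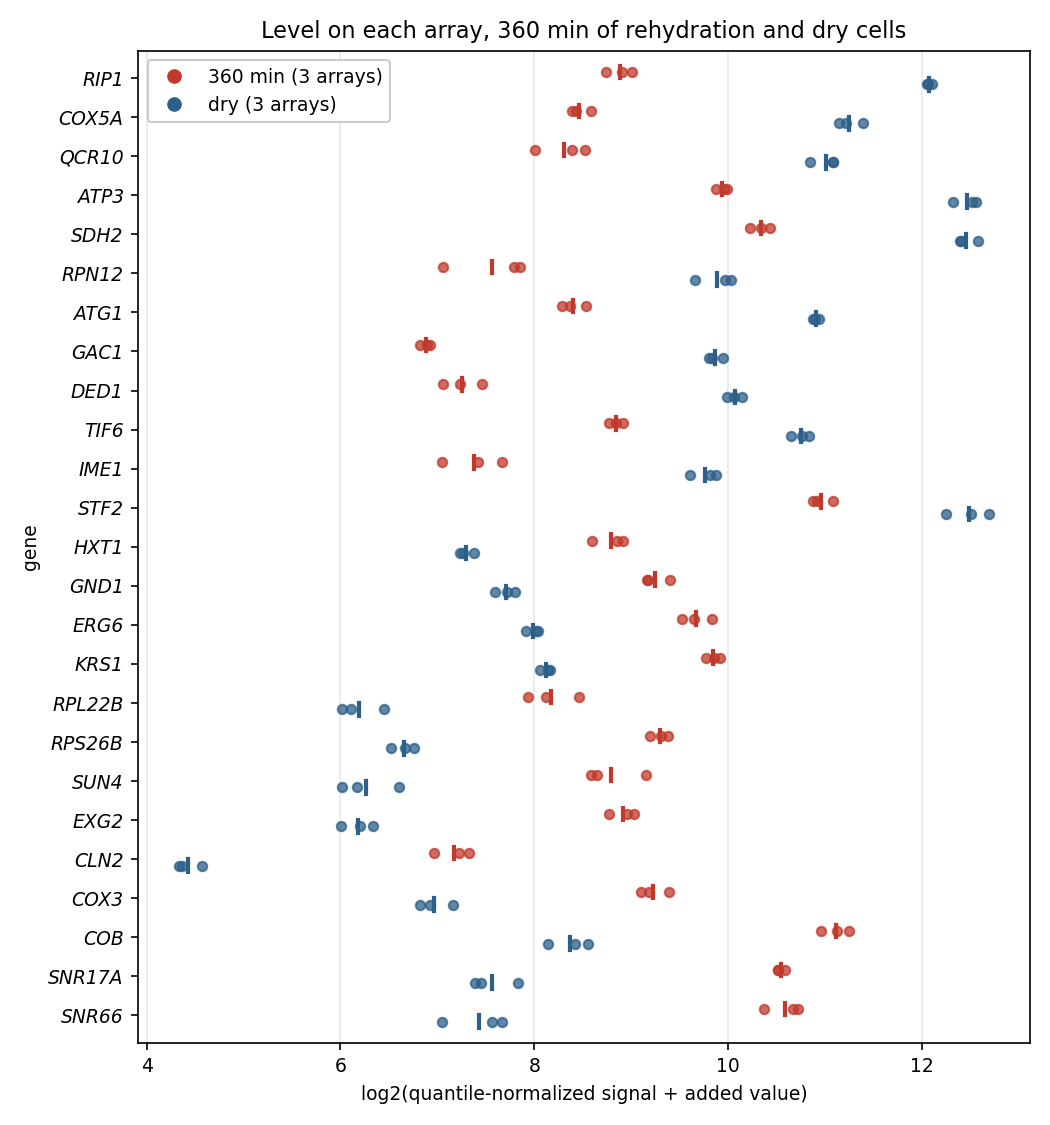
Level of 25 genes on each array, as log2 of quantile-normalized signal plus the added value of 17.74, for the 3 arrays at 360 min (red, upper row of each gene) and the 3 of dry cells (blue, lower row), with a bar at each mean. The red and blue points do not overlap for any gene drawn. This was a condition for those named as largest rises or falls, and all genes drawn had been called, so it is no added support. RIP1 (-3.19) and SNR66 (3.15) show the largest fall and rise among them.

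Genes of the respiratory chain split by genome. Of 36 nuclear genes for its subunits and for ATP synthase none rose and 20 fell, with a median of -1.23. RIP1, the iron-sulfur protein of complex III, had 460.5, 497 and 408 in cells rehydrated for 360 min, against 4372, 4230.0 and 4252 in dry cells. COX5A, a subunit of cytochrome c oxidase, had 326, 365 and 318 at 360 min and 2357, 2244 and 2675 in dry cells. ATP3, the gamma subunit of ATP synthase, had 997, 924 and 974 at 360 min and 5993, 5835 and 5111 in dry cells. The arrays were fully apart in each, with differences of -3.19 ± 0.11, -2.79 ± 0.10 and -2.52 ± 0.09 (SE; adjusted p of 1.11e-13, 2.03e-13 and 2.89e-13), and RIP1 was 9.12-fold lower. QCR10, a small subunit of complex III, fell by 2.70. SDH8, which helps assemble succinate dehydrogenase, fell by 2.88 (566, 552 and 597 at 360 min and 4167, 4536 and 4304 in dry cells), and PET20, needed for respiratory growth, fell by 2.93 (129.7, 144 and 137 at 360 min and 1107, 1259 and 1108 in dry cells). The nuclear list declined at each sampled time, with medians of -0.17, -0.36 and -0.56 after 15, 45 and 90 min. At 360 min it lay under the control cells, by a median of -1.14.

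The mitochondrial genes of the same complexes rose. Of the 8 proteins on the list of the mitochondrial genome 7 rose and none fell, with a median of 2.07. COB, cytochrome b of complex III and so a partner of RIP1, had 1974, 2211 and 2416 in cells rehydrated for 360 min, against 264, 325 and 358 in dry cells. COX3, a core subunit of cytochrome c oxidase, had 564, 655 and 533 at 360 min and 95.5, 125 and 104 in dry cells. ATP6, a membrane subunit of ATP synthase, had 2481, 3064 and 2719 at 360 min and 222, 500.1 and 847 in dry cells. The lowest 360 min array exceeded the highest dry array in all 3, with differences of 2.74 ± 0.21, 2.26 ± 0.14 and 2.54 ± 0.37 (SE; adjusted p of 3.28e-09, 3.28e-10 and 1.18e-05). VAR1, the one ribosomal protein encoded in mitochondria, rose by 2.11 from a low level and with wide spread, at 33.8, 129.9 and 264 at 360 min and 3.5, 24.6 and 11.9 in dry cells. Its other probe set, near the floor in both groups, differed by 0.08 and was not called. SCEI, the homing endonuclease of the mitochondrial large rRNA intron, rose by 2.97 (262, 442 and 506 at 360 min and 20.0, 29.8 and 60.4 in dry cells). The member that was not called was OLI1, a ring subunit of ATP synthase, at 0.89, with its other probe set at 0.06. With the deposited scaling and with median centring all 8 members rose. Levels of the list also exceeded the control cells, by a median of 2.45, and climbed through 0.07, 0.59 and 0.98 after 15, 45 and 90 min. Under the deposited scaling and median centring the medians were 1.97 and 2.44 for the mitochondrial list, and -1.20 and -0.73 for the nuclear list, so the opposed directions held under all 3 scalings.

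Genes of the tricarboxylic acid (TCA) cycle, which feeds the respiratory chain, also fell. Of 15 genes none rose and 8 fell, with a median of -1.18. SDH2, the iron-sulfur subunit of succinate dehydrogenase and thus shared with the chain, had 1368, 1282 and 1179 in cells rehydrated for 360 min, against 6102, 5407 and 5339.9 in dry cells. ACO1, aconitase, had 1562, 1557 and 1499.5 at 360 min and 5178, 6086 and 5647 in dry cells. Neither overlapped, with differences of -2.12 ± 0.15 and -1.86 ± 0.12 (SE; adjusted p of 1.45e-09 and 5.49e-10), and KGD2 and IDH1, subunits of the 2-oxoglutarate and isocitrate dehydrogenases, fell by 1.51 and 1.48.

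With quantile normalization, genes for growth on non-fermentable carbon moved little by comparison. The 18 gluconeogenesis and glyoxylate genes held no rise and 2 falls, and of 22 for fatty acid oxidation and peroxisomes none rose and 3 fell. Of the gluconeogenesis list 2 rose and 1 fell with the deposited scaling, and 6 rose and 1 fell with median centring. The count for fatty acid oxidation turned on the scaling, with 4 higher and 5 lower with the deposited scaling (median -0.27) and 4 higher and 2 lower with median centring (0.20). PDH1, an enzyme of propionate use, had 340.1, 462 and 603 in cells rehydrated for 360 min, against 1572, 1508 and 1839.6 in dry cells, a fall of 1.80. FBP1, the fructose-1,6-bisphosphatase that commits carbon to glucose, had 2525, 2379 and 2216 at 360 min and 4993, 5231 and 5127 in dry cells. FBP1 fell by 1.10 with quantile normalization, and by 0.77 with the deposited scaling and 0.30 with median centring, under which it was not called. Control cells held 78.7 for FBP1 and 45.7 for PDH1. Both lists thus stood far above control cells after 360 min, at medians of 4.64 and 3.15. The median of the gluconeogenesis list was -0.35 with quantile normalization, 0.13 with the deposited scaling and 0.59 with median centring, so its direction turned. DCI1 and PEX18, of the peroxisome, fell by 1.64 and 1.16 and kept that direction under all 3.

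Some genes of sugar uptake and of the pentose phosphate pathway rose. Of 12 hexose transporters 3 rose and none fell, or 1 with the deposited scaling and 5 with median centring. HXT1, the low-affinity transporter of glucose-rich cells, had 445, 368 and 466 in cells rehydrated for 360 min, against 148, 136 and 133 in dry cells, a difference of 1.50 ± 0.13 (SE) that was 1.00 and not called with the deposited scaling, and HXT2 rose by 1.27. In the pentose phosphate pathway 3 of 10 rose and 2 fell. SOL3, the 6-phosphogluconolactonase, had 470.0, 485 and 399 at 360 min and 81.0, 57.1 and 69.5 in dry cells. GND1, the dehydrogenase of the next step, had 657, 557 and 559 at 360 min and 193, 176 and 205 in dry cells. Both were apart on all arrays, with differences of 2.44 ± 0.12 and 1.54 ± 0.14 (SE; adjusted p of 1.35e-11 and 2.18e-08). TKL1, transketolase, rose by 2.16, while RKI1, ribose-5-phosphate ketol-isomerase, and SOL4, a second lactonase gene, fell by 1.17 and 1.09. RKI1 was at -0.85 with 50% of the median added, under 2-fold. All 3 that rose stayed under control cells, which held 1489 for SOL3, 4266 for GND1 and 4670.0 for TKL1.

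Glycolysis depended on the scaling. Of 21 genes 3 rose and 1 fell, with a median of 0.02, and 9 and 13 rose with the deposited scaling and with median centring. TDH3, glyceraldehyde-3-phosphate dehydrogenase, had 7482, 4459 and 6606 in cells rehydrated for 360 min, against 138, 0.2 and 1664 in dry cells. This probe set was near 0 on dry replicate 2 and far brighter on dry replicate 3, and a probe set shared by TDH2 and TDH3 differed by -0.12 (not called), or by 1.64 with the deposited scaling. ADH2, the alcohol dehydrogenase that consumes ethanol, had 7566, 7429.9 and 7482 at 360 min and 778, 899.8 and 2373 in dry cells, a rise of 2.64 ± 0.75 (SE, adjusted p = 0.00529). Its deposited signals were less alike at 360 min, at 22496, 14685 and 18756. The rise was 3.90 with the deposited scaling and 4.36 with median centring. Outside the naming rule, the third that rose was HXK2, the main hexokinase of fermenting cells (1.92), and the fall was PFK2, a phosphofructokinase subunit (-1.33).

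Many genes of protein turnover fell. Of 34 proteasome genes none rose and 15 fell, with a median of -0.98. RPN12, a subunit of the regulatory lid, had 116, 204 and 213 in cells rehydrated for 360 min, against 984, 790.4 and 1031 in dry cells. RPN1, a scaffold of the regulatory base, had 372, 354 and 363 at 360 min and 1202, 1185 and 1169.5 in dry cells. Neither gene overlapped between the groups (-2.32 ± 0.17 and -1.66 ± 0.08 SE; adjusted p of 2.32e-09 and 1.3e-11), and SCL1, a core subunit, and RPN13, a ubiquitin receptor, fell by 1.48 and 1.46. UBC6, a ubiquitin-conjugating enzyme of the endoplasmic reticulum, was among the 15 largest falls, at 34.0, 110.0 and 48.0 at 360 min and 498, 560.4 and 512 in dry cells (-2.84). The proteasome list declined through -0.15, -0.24 and -0.42 after 15, 45 and 90 min and ended under control cells, by a median of -0.84.

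Many genes of autophagy, which is switched on by starvation, also fell. Of 42 genes 14 fell and 1 rose, with a median of -0.73, while the list median stood 0.65 above control cells. ATG1, the kinase that starts autophagy, had 353, 295 and 312 in cells rehydrated for 360 min, against 1894, 1857 and 1944 in dry cells. ATG3, which couples Atg8 to lipid, had 239, 208 and 186 at 360 min and 1210.5, 1229.8 and 1200.1 in dry cells. All 360 min arrays lay under all dry arrays, with differences of -2.51 ± 0.12 and -2.44 ± 0.11 (SE; adjusted p of 5.04e-12 and 4.12e-12), and control cells averaged 294 for ATG1 and 283 for ATG3. ATG22, a vacuolar amino acid exporter, and ATG40, a receptor for turnover of the endoplasmic reticulum, fell by 2.07 and 1.73. The 1 rise was ATG18, a phosphoinositide-binding protein, at 1.02, just over the 2-fold limit and under it with other scalings (0.52 deposited, 0.99 centred) and without 360 min replicate 2 (0.97) or dry replicate 3 (0.99).

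**Figure D4:**
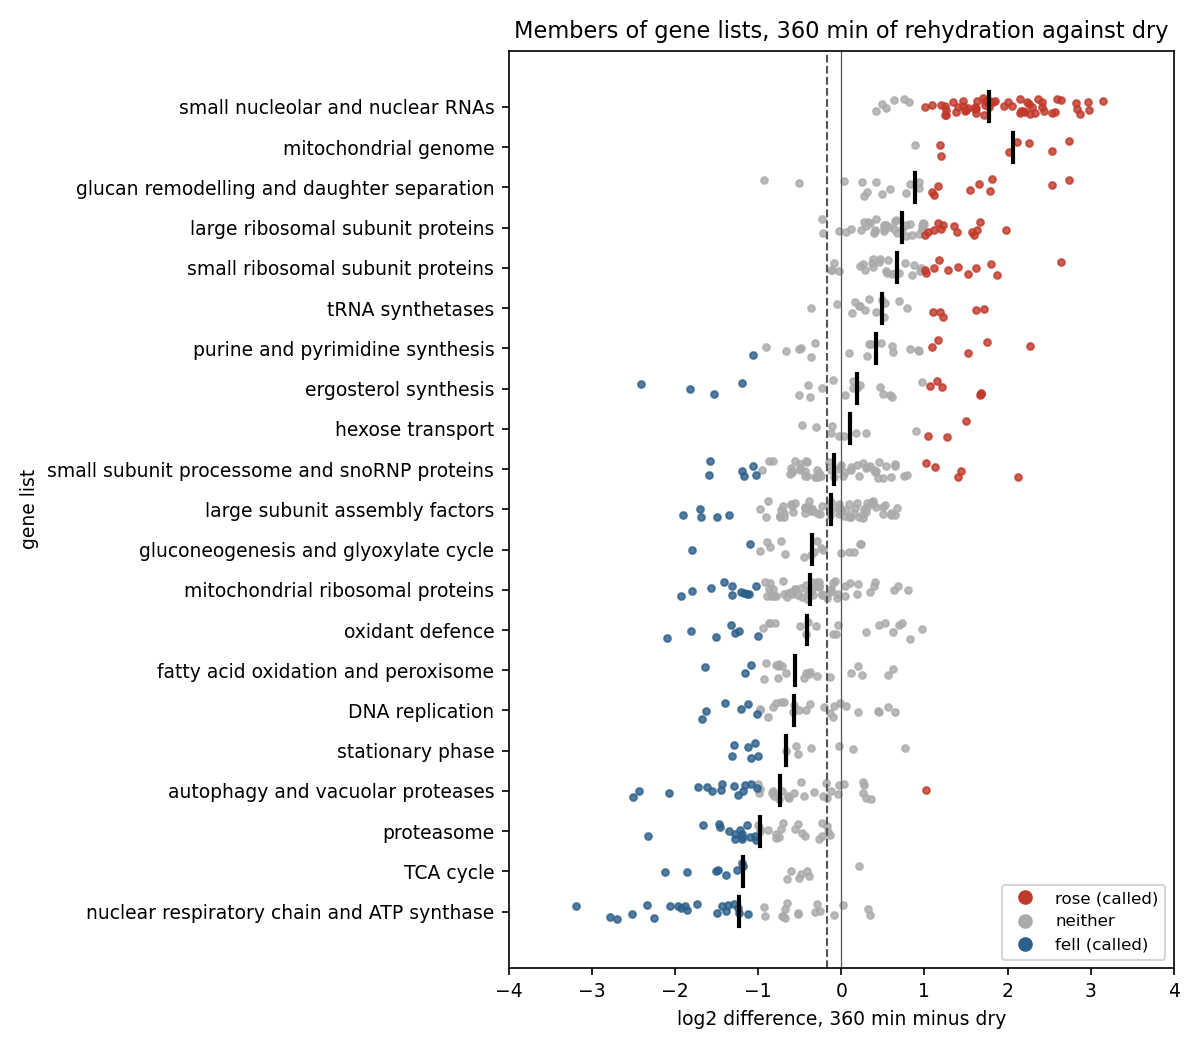
Log2 difference, 360 min minus dry, of every measured member of 21 gene lists (points; red rose, blue fell, grey neither) with the list median as a black bar and the median over all genes as a dashed line. The snoRNA and mitochondrial lists sit to the right (medians 1.78 and 2.07) and the proteasome, TCA cycle and nuclear respiratory lists to the left (-0.98, -1.18 and -1.23).

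Several genes that remodel the cell wall and part the daughter cell rose. Of 22 genes for glucan remodelling and daughter separation 9 rose and none fell, with a median of 0.88. EXG2, an exoglucanase, had 418, 504 and 480.4 in cells rehydrated for 360 min, against 46.6, 62.8 and 56.0 in dry cells. SUN4, a wall protein involved in septation, had 552, 367 and 383 at 360 min and 47.0, 79.3 and 54.1 in dry cells. Both were apart on every array (2.74 ± 0.15 and 2.53 ± 0.17 SE; adjusted p of 3.29e-11 and 5.1e-10). GAS1, which lengthens glucan chains, and DSE2, a daughter-cell protein that degrades the septum, rose by 1.81 and 1.79. EXG2 exceeded its control level of 219, but SUN4, GAS1 and DSE2 did not reach theirs of 2999, 5085 and 4354. Of 17 cell wall mannoproteins 4 rose and 1 fell. CIS3 rose by 2.47 (1733, 1533 and 1392 at 360 min and 250.2, 306 and 240.4 in dry cells), and CCW12, an abundant wall protein, by 4.14 ± 0.91 (SE), with 6634, 2461 and 5692 at 360 min and 203, 135 and 489 in dry cells and so with large spread.

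Ergosterol synthesis, the membrane sterol pathway of yeast, was split, with 6 of 25 genes higher and 4 lower. All 4 falls were of enzymes before the first sterol, and 5 of the 6 rises of enzymes after it. ERG6, the sterol methyltransferase, had 894, 719.6 and 784 in cells rehydrated for 360 min, against 223, 242 and 245 in dry cells. ERG3, the C-5 desaturase, had 1359, 1082 and 962 at 360 min and 346, 363 and 308 in dry cells. They differed by 1.68 ± 0.15 and 1.68 ± 0.14 (SE; adjusted p of 1.95e-08 and 8.15e-09), and ERG4 and ERG11, further late enzymes, rose by 1.67 and 1.21. ERG9, squalene synthase, and ERG1, squalene epoxidase, fell by 1.82 and 2.41, with ERG9 at 745, 677 and 653 at 360 min and 2520.3, 2573 and 2366 in dry cells. Outside the naming rule, ERG13 (-1.54) and IDI1 (-1.20) were the other early enzymes that fell, ERG25 (1.16) the fifth late enzyme that rose, and MVD1 (1.07) the early enzyme that rose. ELO3, which makes very long fatty acids, rose by 1.96 (770.0, 893 and 819 at 360 min and 192, 210.5 and 196 in dry cells), and INO1, which makes inositol for phospholipids, fell by 1.18, in a list of fatty acid and phospholipid genes with 2 of 18 higher and 2 lower. INO1 stayed far above its control level of 61.7.

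Nucleotide and amino acid synthesis changed at a few steps. Of 22 purine and pyrimidine genes 5 rose and 1 fell. IMD4, an IMP dehydrogenase, had 605, 780.2 and 742 in cells rehydrated for 360 min, against 139.5, 106 and 156 in dry cells. GUA1, which makes GMP in the following step, had 1038, 939 and 972 at 360 min and 266, 294 and 274 in dry cells. Neither overlapped (2.27 ± 0.13 and 1.76 ± 0.09 SE; adjusted p of 6.9e-11 and 1.55e-11). None of 15 arginine and lysine genes was called, and other amino acid genes had 5 of 50 higher and 5 lower (2 and 9 with the deposited scaling, 9 and 5 with median centring), led by HIS1, the first enzyme of histidine synthesis (2.38; 547, 473 and 550.2 at 360 min and 93.0, 68.8 and 98.0 in dry cells), and GLT1, glutamate synthase (-2.10; 305, 327 and 320.4 at 360 min and 1419.9, 1540.2 and 1315 in dry cells). Methionine genes fell in 5 of 21 and rose in none: MET13, methylenetetrahydrofolate reductase, had 204, 219 and 176 at 360 min and 1349.5, 1620.5 and 1341 in dry cells (-2.74), and MET6, methionine synthase, fell by 1.83. Amino acid permeases had 1 of 16 higher, the histidine permease HIP1 (1.51), and 4 lower, including TAT1 (-1.43). Nitrogen source genes had 2 of 22 higher and 4 lower, with PUT2, of proline use, at -1.76 and CAR1, arginase, at -1.37.

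Counts of genes tied to drying and stress turned on the scaling. Among 6 hydrophilins, small water-loving proteins linked to desiccation, 3 fell and 1 rose with quantile normalization, 3 fell and 2 rose with the deposited scaling (median -0.21), and 1 fell and 3 rose with median centring (0.26). STF2, which is known to help yeast survive drying, had 1864, 2157 and 1921 in cells rehydrated for 360 min, against 6606, 5797 and 4851 in dry cells, a fall of 1.52 ± 0.17 (SE, adjusted p = 3.32e-07). YNL190W had 1126, 1388 and 1238 at 360 min and 4139, 4108 and 4157 in dry cells and ROQ1 fell by 1.13, while SIP18 and GRE1, chosen after their values were seen, were not called, at 0.03 and 0.17. HSP12, a membrane-protecting protein, had 8335, 6265 and 8224 at 360 min and 1602, 1816 and 2935 in dry cells, a rise of 1.87 ± 0.41 (SE, adjusted p = 0.000759). With median centring STF2 and ROQ1 were under 2-fold (-0.73 and -0.80). Of 16 trehalose and glycogen genes 1 fell, TPS2, the trehalose-6-phosphate phosphatase (-1.56; 1486, 1074 and 1378 at 360 min and 3783, 3947 and 3887 in dry cells). Of 11 glycerol genes 3 fell, among them GPD1, of glycerol synthesis (-1.61), and STL1, a glycerol importer (-1.32).

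Of 13 stationary phase genes 6 fell and none rose, with a median of -0.67. This list depended on scaling: its median was -0.32 with the deposited scaling, where 3 rose and 4 fell, and 0.15 with median centring, where 4 rose and none fell. YGP1 and SPI1, secreted or wall proteins of starved cells, fell by 1.31 and 1.29, and SPG3 by 1.12, all 3 by under 2-fold with median centring (-0.56, -0.63 and -0.71). HBT1 was -1.09 with quantile normalization, -0.32 with the deposited scaling and 0.15 with centring. Oxidant defence genes had no rise and 7 falls among 26, against 1 rise and 9 falls with the deposited scaling and 3 of each with median centring (median -0.14), with GRX2, a glutaredoxin, at 522, 641 and 571 in cells rehydrated for 360 min, against 2502, 2580.0 and 2495 in dry cells, a difference of -2.10 ± 0.10 (SE), and TRX3, the mitochondrial thioredoxin, at -1.81. Chaperones had 2 of 25 higher and 4 lower, including SSA3, a stress-induced Hsp70, at -1.26 (-0.84 and -0.37 with the other scalings). Of 15 genes for folding in the endoplasmic reticulum 1 fell, HAC1, the transcription factor of the unfolded protein response (-1.09, 2253, 2040.4 and 889 at 360 min and 3955, 3344 and 3073 in dry cells). Its call was lost without 360 min replicate 3 or dry replicate 1, at -0.68 and -0.99.

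The 4 largest rises came from probe sets that read near 0 on at least 1 dry array. SSA1, an Hsp70 chaperone, had 6294, 5968 and 6202 in cells rehydrated for 360 min, against 0.1, 0.2 and 0.1 in dry cells (adjusted p = 1.28e-08), and is given no fold because the dry arrays list it at or near 0. Of the probe sets shared by SSA1 and SSA2, 1 rose by 1.86 and another differed by -0.71, so the rise of SSA1 is uncertain. HOR7, a small protein induced by osmotic stress, had 7897, 6294 and 7054 at 360 min and 0.1, 135 and 1.4 in dry cells (7.57 ± 1.22 SE). DDR2, a stress-induced gene of unsettled function, had 5275, 4559 and 4686 at 360 min and 2.3, 264 and 1223 in dry cells (4.66 ± 1.78 SE), and its call was lost without dry replicate 1 or any of the 360 min replicates. The size of these rises depends on the added value: with 1% and 50% of the median added, the difference of HOR7 was 9.58 and 5.88, and that of TDH3 6.31 and 4.23.

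The 3 G1 cyclins were higher with quantile normalization. Of 22 cyclins and regulators 4 rose and 2 fell, against 2 and 4 with the deposited scaling (median -0.21) and 5 and 2 with median centring (0.25). CLN2, a G1 cyclin that commits cells to division, had 143, 132 and 107 in cells rehydrated for 360 min, against 6.1, 2.4 and 2.8 in dry cells. The difference was 2.75 ± 0.24 (SE, adjusted p = 1.56e-08), from near the floor in dry cells, and control cells averaged 177. CLN1 and CLN3, the other G1 cyclins, and SWI5, a factor of late division, were the other 3 that rose, at 1.37, 1.21 and 1.01, named after their values were seen. CLN3 and SWI5 were under 2-fold with the deposited scaling, and all 3 with 50% of the median added. SWI4, of the factor that drives G1 cyclin genes, fell by 1.51 at low level (73.0, 46.0 and 27.4 at 360 min and 191, 148 and 156 in dry cells), or to -0.89, under 2-fold, with 50% of the median added. DNA replication genes had 6 of 29 lower and none higher, led by CDC21, thymidylate synthase (-1.68), and CDC6, which loads the replicative helicase (-1.63), both dim and at -0.84 and -0.60 with 50% of the median added, under 2-fold. Of 4 histone genes with a probe set of their own, HTB2 rose by 1.68 and HTB1, the other H2B gene, fell by 1.72: HTB2 had 756, 738 and 711 at 360 min and 203, 219 and 232 in dry cells, and HTB1 had 795, 1106 and 1071 at 360 min and 3260.3, 2961 and 3639.6 in dry cells. HHO1, linker histone, fell by 1.01, just past the 2-fold limit and under it without 360 min replicate 1 (-0.90) or dry replicate 1 (-0.99). IME1, the master regulator of entry into meiosis, fell by 2.38 (153, 185 and 115 at 360 min and 919, 762 and 879 in dry cells), in a list of 20 meiosis genes with 1 higher, the SPS100 given above, and 3 lower. In control cells IME1 stood at 181.

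Other large changes fell in several processes. GAC1, the subunit that directs phosphatase to glycogen synthase, had 104, 95.6 and 101 in cells rehydrated for 360 min, against 878, 893 and 966 in dry cells, with very little spread (-2.98 ± 0.07 SE, adjusted p = 4.4e-15). CDC39, the scaffold of the Ccr4-Not complex that shortens messenger RNA tails, fell by 3.26 on its brightest probe set, but its 8 other probe sets ran from -1.86 to 0.39. MOH1, needed for survival in stationary phase, had 338, 659 and 924 at 360 min and 5436, 4167 and 4714 in dry cells (-2.97). NGK1 had 2.5, 5.9 and 12.3 at 360 min and 339, 317 and 307 in dry cells (-3.80); its 360 min level lies under the added value, so the size depends on it, at -5.39 and -2.10 with 1% and 50% of the median added. SEO1, a putative permease, SNT309, of the spliceosome, ECM13 and YRO2 fell by 3.02, 2.81, 2.86 and 2.72. HMS2, a transcription factor resembling heat shock factor, rose by 2.89 (665, 468 and 719 at 360 min and 49.3, 91.1 and 64.3 in dry cells). The tRNA gene YNCJ0006W rose by 2.86 (1406, 698 and 1467 at 360 min and 129.6, 124 and 169.9 in dry cells), on a probe set shared among tRNA copies. PHO3, an acid phosphatase, rose by 2.71 in a phosphate list with 1 of 15 higher and 3 lower, and PHM8, of the same list, fell by 1.84. TIS11, which destabilises messenger RNAs for iron use, and SMF3, a vacuolar iron exporter, fell by 2.32 and 1.73, in an iron and copper list with 2 of 26 higher and 4 lower. Of 15 genes of mating and haploid cells 1 rose on its brightest probe set, MF(ALPHA)1 as given above.

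List medians after 15 min ran from -0.32 (large ribosomal subunit proteins) to 0.24 (small nucleolar and nuclear RNAs) relative to dry cells. The values at each time share their dry arrays and stand side by side without a test. RIP1 averaged 3578, 1984 and 1231 after 15, 45 and 90 min, before the 360 min level given above. ATG1 averaged 1616, 1236 and 671, EXG2 62.7, 111 and 175 and COB 315, 605 and 765 at the same times. CLN2 averaged 14.9, 4.9 and 28.9, against the 360 min values given above.

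**Figure D5:**
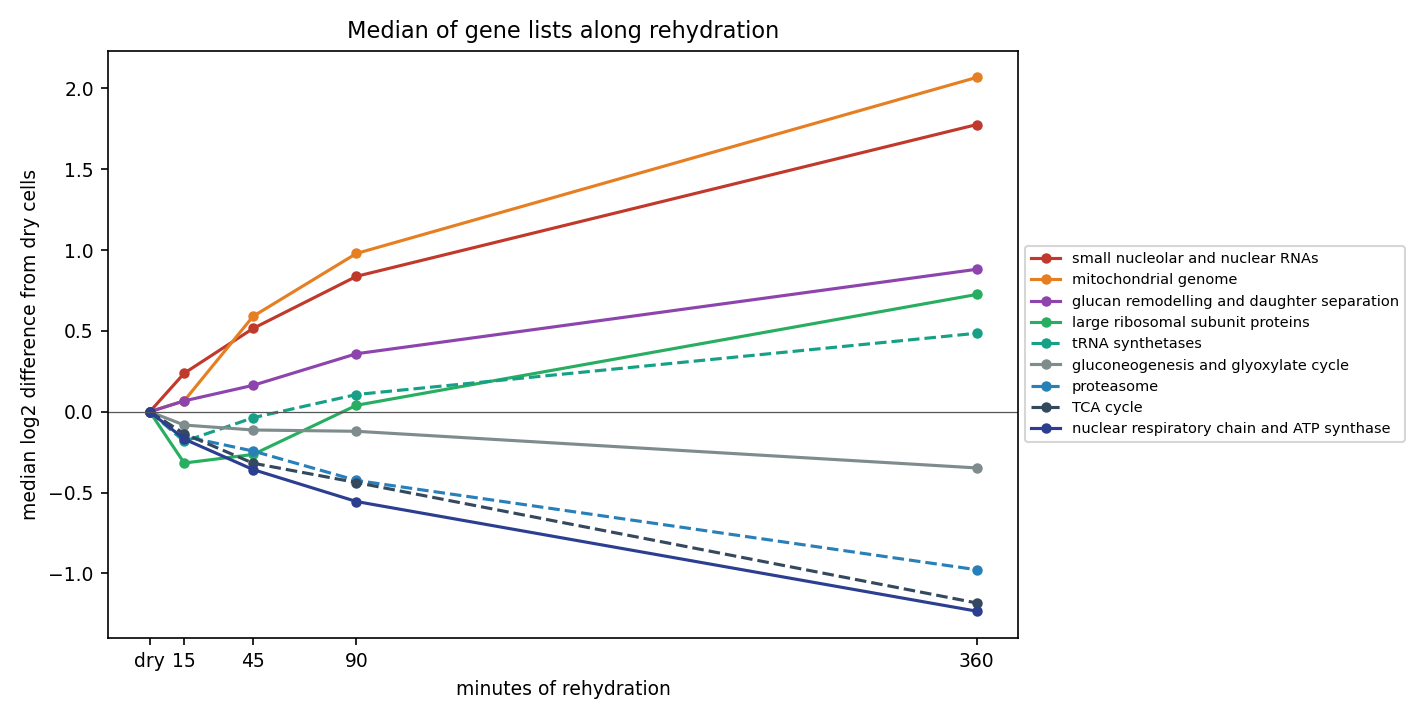
Median log2 difference from dry cells of 9 gene lists after 15, 45, 90 and 360 min of rehydration (horizontal axis in minutes, dry cells at the left), with no error drawn. At 15 min the lists lie between -0.32 and 0.24, and by 360 min the snoRNA and mitochondrial lists have climbed to 1.78 and 2.07 while the nuclear respiratory list has come down to -1.23.

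Against the cells taken before drying, 360 min of rehydration left groups at different points, again without a test. Run, day and treatment cannot be told apart here either. Log2 ratios of 3′ to 5′ signal in control cells were -0.82 (ACT1), 1.37 (SPT15) and 1.03 (SRB4), under those at 360 min. The part of this in the differences from control cells was not tested. These differences are for quantile normalization and were not computed with the other scalings. The medians of ribosomal proteins, tRNA synthetases and glucan remodelling genes had moved up from dry cells but lay under control cells, by -1.37 (small subunit), -2.48 and -1.77. Those of proteasome, TCA cycle and nuclear respiratory genes had moved down and lay under control cells as well (-0.84, -0.91 and -1.14). The snoRNA and mitochondrial lists had moved up past control cells, and gluconeogenesis and fatty acid oxidation remained above them.

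Short coding genes carried more of the falls than long ones. In 4 equal bins of coding length, from shortest to longest, the median difference of nuclear coding genes was -0.33, -0.24, -0.19 and -0.09, and 20.8%, 17.7%, 12.4% and 10.7% fell. The part of coding length in the list counts was not tested.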

How the data were processed

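The series consists of 21 Affymetrix YG_S98 arrays, 1 per sample, and its deposited values are linear probe-set intensities. Images were read with Affymetrix GeneChip software, tested by signed rank and combined per probe set in a mixed model of 2 steps, per the labels. The scaling and genome build are not given in the sources used here. Array medians ran unevenly although trimmed means were about 500, so 17.74 (10% of 177.4, the median tested signal) was added to each signal before log2, and arrays were quantile normalized over 9275 probe sets. Of these, 6504 named 1 gene, 328 several and 2443 none, through the platform annotation and a RefSeq gene table of 5656 covered genes. The brightest probe set naming a gene alone stood for it.

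Group means of all 7 groups were fitted with limma 3.58.1 in R 4.3.3 (14 residual degrees of freedom), and 360 min minus dry was tested with moderated, trended variances. The p-values were adjusted by Benjamini-Hochberg over 9275 probe sets. The test was tried first on simulated data. The ratios of 3′ to 5′ signal were fitted without the variance trend, and their p-values were adjusted over the 3 ratios. Alternatives covered the added value, scaling, minimum fold, variance trend, filters, blocks, array weights, the 6 arrays alone and each replicate left out. Precision is limited by 3 arrays per group and by signal near the floor. Replicate numbers were not used to pair samples in the main fit. Deviations of same-numbered 360 min and dry arrays correlated at -0.02, -0.06 and 0.07. With 3 arrays per group this cannot show whether those samples shared a culture or drying run.

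The members and gene lists were chosen with earlier results of these data known. Named genes were the 15 largest rises and 15 largest falls among called genes without overlap, 2 to 6 called members per list, the deleted genes and markers of spores and haploid cells. Array run records held no measurement and served to find hybridization runs and scan days.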

Additional observations from a re-analysis of the deposited data

How the results depend on the processing

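With 50% of the median signal added in place of 10%, 648 probe sets were higher and 601 lower at 360 min. The deposited scaling gave 1717 lower, and median-centred arrays gave 1711 higher. Without a minimum fold 2640 were higher and 2820 lower. Among probe sets naming 1 nuclear protein-coding gene 414 were higher, and among those without a suffix for shared or family sequence, a filter chosen after seeing the data, 625. Leaving out 1 replicate at a time gave 1058 to 1117 higher and 1088 to 1172 lower. HBT1 reversed to 0.15 with median-centred arrays. Of 128 called named genes 105 kept their call under every setting run; the cause of the other losses was not tested. With the replicate number as a block 1059 were higher and 1087 lower, and no call of a named gene changed. A fixed block for hybridization run or scan day could not be run, since the 360 min arrays filled a run of their own; with run as a random block 1069 were higher and 1099 lower. Signal near the floor limits dim genes such as URA3, CDC6 and VAR1. Of these, CDC6 lost its call with 50% of the median added, at -0.60.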

Other observations

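Probe sets that name no gene were higher at 360 min in 441 of 2443 (18.1%) and lower in 2.46%, and those that name several genes were higher in 18.0% and lower in 3.35%, against 8.61% and 15.6% of probe sets that name 1 gene. Among the non-coding RNAs outside the lists, the telomerase RNA TLC1 rose by 2.28 (726, 934 and 1075 at 360 min and 155, 173 and 185 in dry cells), and the RNase P RNA RPR1 was not called at 0.78 (7616, 6425 and 6852 at 360 min and 3612, 4216 and 4345 in dry cells). With the deposited scaling and median centring RPR1 differed by 2.18 and 2.65, and TLC1 by 1.88 and 2.34. The size for RPR1 thus turned on the scaling. These genes were picked after their values were seen.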
